A study of Mus musculus with 18 samples.

Results

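The genes described are 35 members of the integrated stress response, of serine synthesis and of the endoplasmic reticulum (ER) stress response in mouse natural killer (NK) cells. They were taken by gene symbol from a count table of 55487 gene identifiers. They form 3 subgroups: 19 genes controlled by or partnering the transcription factors ATF4 and CHOP, 8 enzymes of serine and one-carbon metabolism, and 8 genes of ER stress. Of the 35 members, 33 had enough reads to enter the test, which ran over 14864 genes. Nupr1, a stress-induced nuclear protein, and Cth, the cysteine-making enzyme cystathionine gamma-lyase, did not: the highest read count of any library was 9 for Nupr1 and 13 for Cth. Both belong to the ATF4/CHOP subgroup, which therefore had 17 tested members.

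RNA came from YFP-positive NK cells sorted from spleen, in 18 libraries, 3 for each of 6 groups. Knock-out (KO) cells carried a floxed gene for ATP-citrate lyase, Acly fl/fl, together with a Rosa YFP/YFP reporter and Ncr1 CRE-ERT2, a tamoxifen-dependent Cre expressed from the NK-cell gene Ncr1. Wild-type (WT) cells carried the same reporter and the same Cre without the floxed allele. Mice of both genotypes received tamoxifen in the diet for 48 hours, and cells were sorted 5 days after the diet ended. Cells of each genotype were taken fresh, after priming for 72 hours with the cytokine IL-15 at 100 ng/ml, or after priming followed by a wash and 6 hours on a plate-bound NKG2D reagent at 20 ug/ml. NKG2D is an activating receptor of NK cells. No group was cultured without IL-15, and none was washed and plated without the NKG2D reagent. The effect of IL-15 therefore cannot be told apart from that of 72 hours of culture. Nor can the effect of NKG2D be told apart from the wash and the 6 further hours. Below, priming and NKG2D stimulation name these whole steps. The YFP gate keeps cells in which Cre has acted, and no measure of how many alleles were deleted was used here. The labels do not say whether the 3 libraries of a group came from separate mice. The p-values below therefore set a difference only against the spread between libraries of a group, which may be technical. That spread was estimated jointly over the 6 groups.

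ATP-citrate lyase makes acetyl-CoA in the cytosol, the building block of fatty acids and sterols and the donor for histone acetylation. In the integrated stress response, kinases that sense unfolded protein, amino acid shortage or haem shortage phosphorylate the initiation factor eIF2 alpha, which slows general translation and favours translation of Atf4 mRNA. ATF4 then drives genes for amino acid synthesis and tRNA charging, and with CHOP, the product of Ddit3, drives feedback genes. In the ER, unfolded protein also activates IRE1, which splices Xbp1 mRNA, and ATF6. These raise chaperones and the machinery that returns misfolded protein to the cytosol for degradation (ERAD). Much of this control acts on translation and splicing, which gene-level read counts do not show.

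The libraries held 14.8 M to 34.4 M reads assigned to genes, the fewest in primed KO replicate 1. That library also had reads in the fewest gene identifiers, 14695, beside 17877 to 19668 in the others. Values below are CPM, the reads of a gene scaled to a common library size of 1 M and corrected for library composition (TMM), given for replicates 1, 2 and 3 in that order, and means carry the standard deviation with n = 3. Acly averaged 18.9 ± 5.66 CPM in fresh KO cells against 250.3 ± 16.7 in fresh WT cells, 42.8 ± 5.56 in primed KO against 256 ± 26.9 in primed WT cells, and 36.3 ± 7.22 in stimulated KO against 164 ± 32.9 in stimulated WT cells. The 9 NK-cell markers summed to between 4160 and 16796 CPM over the 18 libraries; 3 of the 9 were higher and 2 lower in primed KO than in primed WT cells, and 2 were higher and 3 lower after NKG2D. Primed WT replicate 3 and NKG2D-stimulated KO replicate 1 stood apart from their groups in the class I gene H2-D1, at 4338 CPM beside 452 and 444, and at 1314 CPM beside 4636 and 5325. In the other genotype H2-D1 read 4796, 4966 and 2835 CPM in primed KO and 1734, 900 and 496 CPM in stimulated WT cells. Acly read 262 CPM in primed WT replicate 3 and 39.0 CPM in stimulated KO replicate 1, each within the range of its own group. Why these libraries stood apart was not tested. Members whose call changes without either library are named beside their values.

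Of the markers of other cells, the 7-gene monocyte, macrophage and neutrophil list summed to 37.5 to 41.3 CPM in primed KO cells against 53.4 to 67.4 CPM in primed WT cells, and to 90.8 to 109 CPM in stimulated KO cells against 49.0 to 70.0 CPM in stimulated WT cells, with Lyz2, S100a8 and S100a9 at 0 in all 4 groups. Cd68 made up most of each of these sums. It read 37.2, 39.2 and 41.1 CPM in primed KO and 51.8, 65.7 and 52.4 CPM in primed WT cells. In stimulated cells Cd68 read 109, 90.2 and 91.6 CPM in KO and 46.8, 59.1 and 68.8 CPM in WT. The genotype differences of the sums are therefore mostly those of this gene. In this list 2 of 5 tested genes were lower in primed KO cells, and 1 was higher and 1 lower in stimulated KO cells. The 7-gene T-cell list summed to 16.9 to 19.4 CPM in primed KO cells against 30.6 to 61.9 CPM in primed WT cells, and to 14.6 to 17.0 CPM in stimulated KO cells against 28.3 to 49.2 CPM in stimulated WT cells. Of its 4 tested genes, 1 was lower in primed KO cells and 2 in stimulated KO cells. The T-cell gene Cd3e did not share the direction of these sums. It averaged 2.03 ± 0.922 CPM in primed KO and 0.573 ± 0.653 CPM in primed WT cells, with every KO library above every WT library. In stimulated cells Cd3e averaged 1.14 ± 0.529 CPM in KO and 0.91 ± 1.05 CPM in WT, and the libraries overlapped. Of the defining genes Cd4, Cd8a and Cd8b1, all 3 were at 0 in stimulated KO cells and 2 of the 3 in each of the other cultured groups. The 5-gene B-cell list reached at most 5.60 CPM in any library, with Ms4a1 at 0 in all cultured cells. Plasma cells express several ER members strongly, and the 5-gene plasma-cell list summed to 19.0 to 26.9 CPM in primed KO cells against 38.5 to 47.4 CPM in primed WT cells, and to 9.10 to 10.7 CPM in stimulated KO cells against 6.18 to 13.1 CPM in stimulated WT cells. Prdm1 made up most of these sums, at 23.7 ± 4.14 CPM in primed KO and 42.3 ± 4.29 CPM in primed WT cells. It averaged 8.77 ± 0.887 CPM in stimulated KO and 8.68 ± 3.17 CPM in stimulated WT cells. In cultured KO and WT cells the plasma-cell genes Jchain, Mzb1 and Tnfrsf17 were at or near 0, and 1 of 3 tested genes of the list was lower in primed KO cells. Fresh KO libraries had 16.4 to 18.1 CPM over 6 erythroid genes against 115 to 201 CPM in fresh WT libraries. The part of these cells in the results below was not tested.

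The promoters of a few members are printed because they carry, letter for letter, the short sequences through which ATF4 and the ER stress factors are known to act. The sequences come from RefSeq on build GRCm38.p6, where 33 of the 35 members had a window from 250 bases before to 50 bases after the gene start. On both strands of these windows 3 motifs were searched: the CARE, TGATGNAA, bound by ATF4 with a C/EBP partner; the ERSE, CCAAT and CCACG separated by 9 bases of any kind; and the ERSE-II, ATTGG and CCACG separated by 1 base. No motif overlapped another in the members' windows. The CARE stood in 6 of 17 ATF4/CHOP members with a window (Nupr1, Trib3, Chac1, Asns, Pycr1 and Got1), in 0 of 8 serine and one-carbon members and in 1 of 8 ER stress members, and in 3.97% of all 32851 windows of that length. The ERSE stood in 2 ER stress members, Hspa5 and Hsp90b1, and in 0.119% of all windows. The ERSE-II stood in Herpud1 and in 0.0365% of all windows.

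The 250 bases before the start are given 5′ to 3′ on the gene's own strand, with the motif letters in capitals. Asns (chr6:7693210-7693459, minus strand) has a CARE that begins 23 bases before the start, and Chac1 (chr2:119350992-119351241, plus strand) has one on the other strand. Both genes were near 0 in fresh cells and came up with priming, as described below.
Asns: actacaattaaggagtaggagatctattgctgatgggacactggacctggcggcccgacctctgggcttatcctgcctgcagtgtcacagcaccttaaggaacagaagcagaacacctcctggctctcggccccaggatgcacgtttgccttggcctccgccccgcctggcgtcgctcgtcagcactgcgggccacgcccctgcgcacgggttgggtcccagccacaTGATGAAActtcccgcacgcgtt
Chac1: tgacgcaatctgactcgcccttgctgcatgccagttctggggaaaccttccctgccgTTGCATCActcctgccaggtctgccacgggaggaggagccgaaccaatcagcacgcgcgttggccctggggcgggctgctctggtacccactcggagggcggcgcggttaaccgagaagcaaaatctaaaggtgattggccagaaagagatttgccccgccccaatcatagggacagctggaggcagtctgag
Hspa5 (chr2:34771840-34772089, plus strand) holds 1 ERSE and Hsp90b1 (chr10:86705445-86705694, minus strand) holds 2, one of them on the other strand. Both genes were lower in stimulated KO cells than in stimulated WT cells.
Hspa5: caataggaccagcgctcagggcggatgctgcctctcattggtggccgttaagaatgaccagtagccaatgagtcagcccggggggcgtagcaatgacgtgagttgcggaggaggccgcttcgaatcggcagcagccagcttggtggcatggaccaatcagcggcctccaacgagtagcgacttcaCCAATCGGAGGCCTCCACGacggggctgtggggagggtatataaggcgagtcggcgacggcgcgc
Hsp90b1: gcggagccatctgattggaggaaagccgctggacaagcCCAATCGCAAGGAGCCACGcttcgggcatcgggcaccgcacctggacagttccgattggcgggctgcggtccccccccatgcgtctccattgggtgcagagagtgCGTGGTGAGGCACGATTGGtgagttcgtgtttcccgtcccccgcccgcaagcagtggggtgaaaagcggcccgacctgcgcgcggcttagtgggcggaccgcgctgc
Herpud1 (chr8:94386179-94386428, plus strand) holds a CARE on the other strand and an ERSE-II. It fell with priming in both genotypes, unlike Asns and Chac1. Its difference between genotypes did not pass the test in any condition, as given below.
Herpud1: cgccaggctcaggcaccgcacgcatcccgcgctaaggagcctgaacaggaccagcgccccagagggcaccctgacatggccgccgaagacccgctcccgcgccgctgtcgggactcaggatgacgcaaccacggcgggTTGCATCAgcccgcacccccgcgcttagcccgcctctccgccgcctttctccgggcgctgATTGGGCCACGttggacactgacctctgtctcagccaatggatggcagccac
A match is a description of the letters and does not show that a factor bound there.

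Per kilobase of exon, the most abundant members were chaperones and, in fresh cells, the eIF2 phosphatase subunit gene Ppp1r15a. Hspa5, which encodes the central ER chaperone BiP, had 279 CPM per kilobase in fresh KO and 293 in fresh WT cells. Ppp1r15a had 285 CPM per kilobase in fresh KO and 302 in fresh WT cells, and 16.2 in primed KO and 14.2 in primed WT cells. Among the serine genes Phgdh was the most abundant in primed cells, at 66.6 CPM per kilobase in KO and 92.6 in WT. Atf4 itself stayed between 52.2 and 67.6 CPM per kilobase in all 6 groups. At the low end, the group means of Cebpb, Trib3, Chac1, Pycr1, Gpt2 and Atf5 were all under 7 CPM, so that their fold changes carry wide errors.

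**Figure D1:**
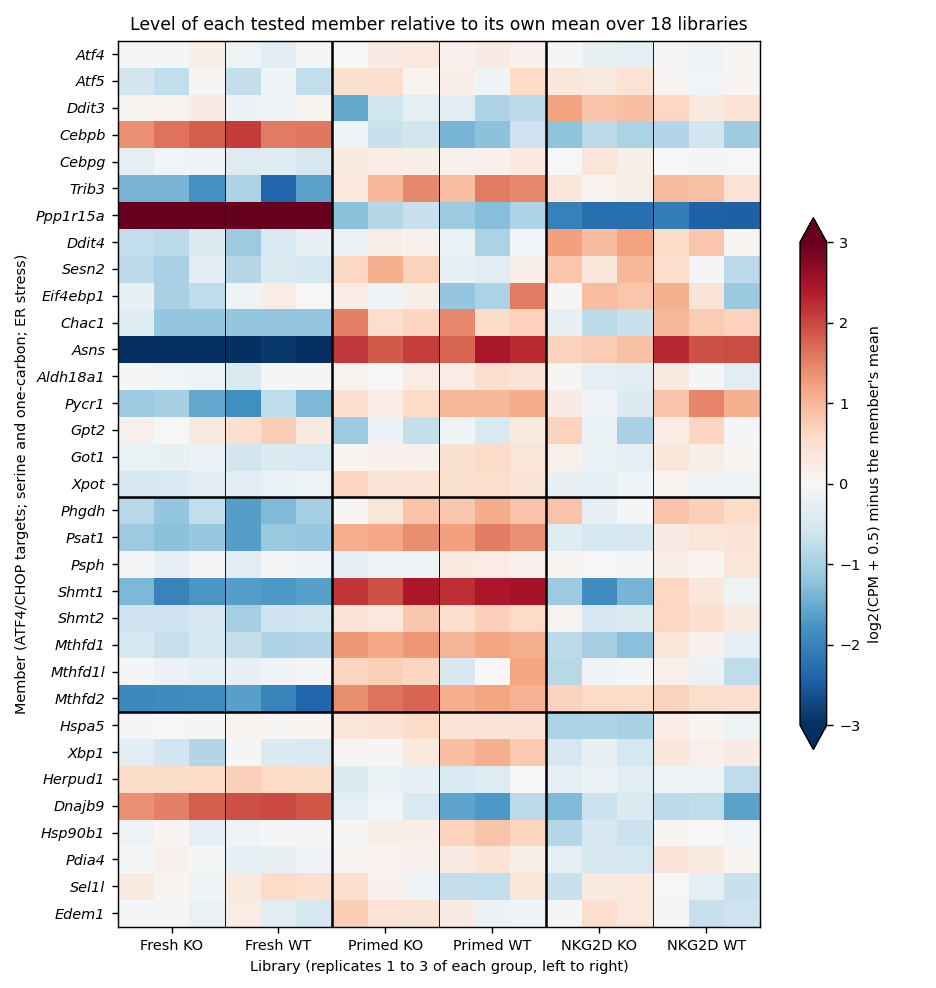
Level of each of the 33 tested members in each of the 18 libraries, as log2(CPM + 0.5) minus the member's mean over all libraries; columns run from fresh through primed to NKG2D-stimulated cells with KO left of WT, rows are members by subgroup, and the colour scale ends at 3 in either direction. Asns and the serine and one-carbon genes Shmt1 and Mthfd2 are low in all 6 fresh libraries and high in all 6 primed ones, Ppp1r15a runs the other way, and Hspa5 is lowest in the 3 stimulated KO libraries.

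In fresh cells the genotypes were compared to ask whether loss of Acly alters these genes before any culture. No member passed the test: 0 of 33 were higher and 0 lower in KO cells, where 0.0135% of all tested genes were higher and 0.0538% lower. Without adjustment, 4 members and 1903 genes had p under 0.05. Atf4, the central transcription factor of the response, had 136, 134 and 158 CPM in fresh KO cells and 125, 111 and 135 CPM in fresh WT cells (log2 fold change 0.21, SE 0.105, adjusted p = 0.419). Ddit3 read 38.8, 39.4 and 43.3 CPM in KO and 32.6, 34.0 and 38.9 CPM in WT cells (0.20, 95% interval -0.28 to 0.69, adjusted p = 0.769). The ranges of Atf4 and Ddit3 overlapped between genotypes. Hspa5 read 1147, 1193 and 1205 CPM in fresh KO cells and 1276, 1210.2 and 1233 CPM in fresh WT cells. That is -0.07 on the log2 scale (95% interval -0.26 to 0.12), so a fall of Hspa5 of the size seen later in stimulated cells lies outside this interval. Xbp1 had a log2 fold change of -0.29 (95% interval -0.63 to 0.05).

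The median log2 fold change in fresh cells was -0.06 over the ATF4/CHOP subgroup, 0.11 over the serine and one-carbon subgroup and -0.07 over the ER stress subgroup, beside 0.01 over all tested genes. Asns, asparagine synthetase, was the member nearest to a call. It had 4, 1 and 0 reads in fresh KO libraries and 11, 13 and 6 reads in fresh WT libraries, or 0.181, 0.05 and 0 CPM against 0.426, 0.610 and 0.314 CPM, and the genotypes did not overlap (log2 fold change -2.64, SE 0.587, adjusted p = 0.181). It passed with DESeq2 (adjusted p = 0.027), without any filter on low counts (0.000393) and without KO replicate 1 (0.0376). These are a few reads per library, and how much fresh Asns mRNA there was at all was close to the limit of detection. With the 6 fresh libraries tested alone, on 13300 genes, 1.92% of genes were higher and 3.94% lower in KO, and 0 of the 30 members tested passed in either direction; Asns, Chac1 and Pycr1 were not among those 30.

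Priming with IL-15 was compared with the fresh state, separately in each genotype. In KO cells 20 members rose and 5 fell, beside 23.0% of all tested genes that rose and 25.7% that fell. In WT cells 21 members rose and 6 fell, beside 26.5% and 27.2% of all tested genes. The serine and one-carbon subgroup moved in 1 direction in both: 7 of 8 members rose in KO cells and 7 of 8 in WT cells and none fell, with a median log2 fold change of 1.61 in KO and 2.10 in WT cells, beside -0.06 over all tested genes in each. In the ATF4/CHOP subgroup 10 of 17 rose and 3 fell in each genotype, with a median of 0.73 in KO and 0.51 in WT cells. In the ER stress subgroup 3 rose and 2 fell in KO cells and 4 rose and 3 fell in WT cells, with medians of 0.18 in KO and 0.25 in WT cells. In bulk libraries such as these, fewer cells of a type and less RNA per cell cannot be told apart.

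**Figure D2:**
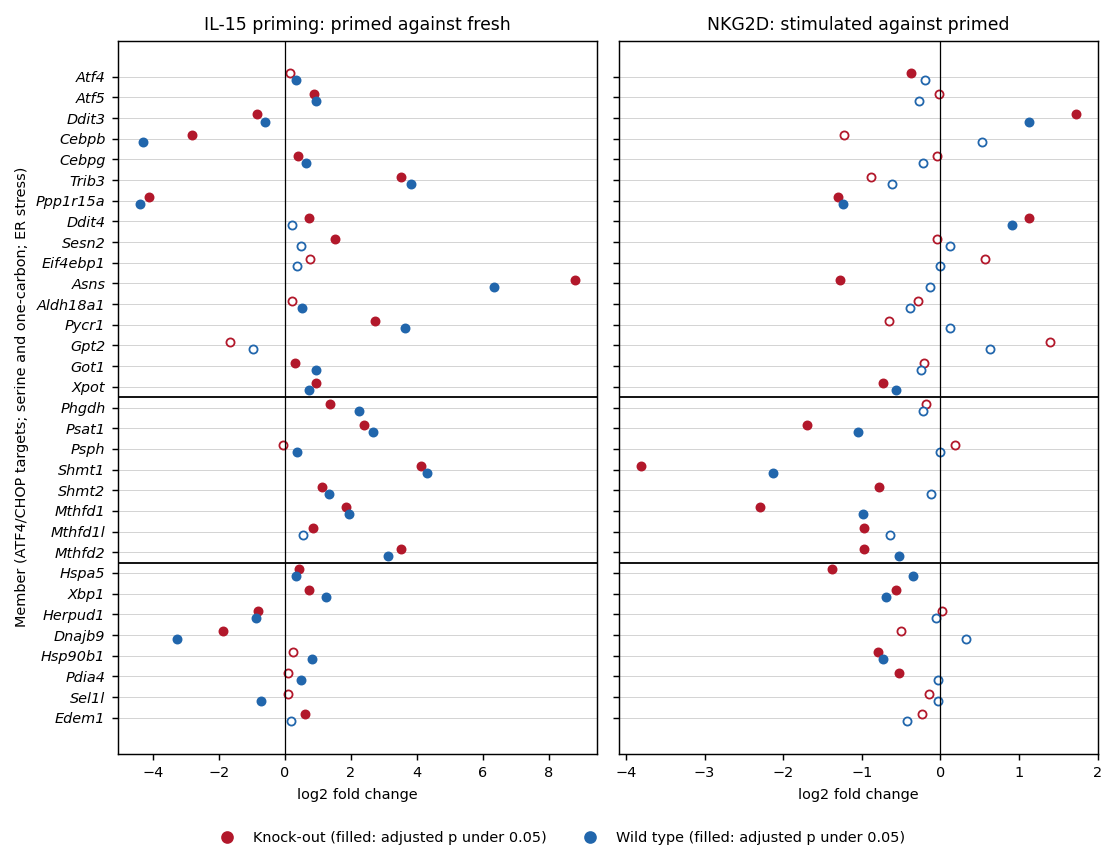
Log2 fold changes of 32 tested members, KO in red drawn above WT in blue, for primed against fresh cells (left) and for NKG2D-stimulated against primed cells (right), with filled points past an adjusted p of 0.05 and Chac1 left out because fresh WT libraries held no read of it. Of 8 serine and one-carbon members, 7 were higher in primed than in fresh cells in each genotype. In stimulated against primed cells 6 of 8 were lower in KO and 4 of 8 in WT cells.

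The serine and one-carbon enzymes rose steeply. Shmt1, the cytosolic enzyme that passes the serine side chain to folate (chromosome 11 from 60788104 to 60811718 on the minus strand, mm10), had 38.8, 33.5 and 47.0 CPM in primed KO cells against 2.99, 1.70 and 2.14 CPM in fresh KO cells (log2 fold change 4.12, SE 0.261, adjusted p = 6.71e-10). In WT cells it had 41.0, 46.9 and 49.3 CPM primed against 2.32, 2.21 and 2.36 CPM fresh (4.31, SE 0.263, adjusted p = 4.3e-10). No primed library overlapped a fresh one. Mthfd2, the mitochondrial folate dehydrogenase that is low in most resting adult cells, had 158, 187 and 201 CPM in primed KO cells against 15.3, 15.8 and 16.2 CPM fresh (3.53, SE 0.153, adjusted p = 5.62e-12). In WT cells Mthfd2 had 128, 136 and 124 CPM primed against 18.9, 14.5 and 11.1 CPM fresh (3.12, SE 0.151, adjusted p = 2.45e-11). Psat1, the transaminase of serine synthesis, rose by 2.40 in KO and 2.68 in WT cells (adjusted p = 1.81e-10 and 5.19e-11), to 187 ± 21.5 CPM in primed KO and 207 ± 22.5 CPM in primed WT cells.

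Mthfd1, the cytosolic enzyme that interconverts folate-bound one-carbon units, rose by 1.86 in KO and 1.95 in WT cells, with 92.8, 84.5 and 93.8 CPM in primed KO cells against 25.8, 23.1 and 25.7 CPM fresh, and 76.7, 85.3 and 79.5 CPM in primed WT cells against 22.5, 19.6 and 20.3 CPM fresh. Phgdh, the first enzyme of serine synthesis, rose by 1.36 in KO and 2.24 in WT cells (adjusted p = 0.000274 and 1.47e-06). Phgdh and the last enzyme, Psph, hold fractional counts in all 18 libraries, so their levels may depend on how reads shared with copies were divided. Fractional counts also stand in 17 of 18 libraries for Atf5, 7 for Shmt1, 7 for Ddit3, 6 for Xpot and 4 for Dnajb9. Shmt2, the mitochondrial counterpart of Shmt1, rose by 1.11 in KO and 1.35 in WT cells. Psph had a log2 fold change of -0.06 in KO cells (adjusted p = 0.678) and rose by 0.37 in WT cells (adjusted p = 0.00738). Mthfd1l, which releases formate in mitochondria, rose by 0.84 in KO cells (adjusted p = 0.0376), a call lost in 6 of 14 alternatives, where the adjusted p reached 0.0939. In WT cells its log2 fold change was 0.55 (adjusted p = 0.154), with primed libraries at 24.5, 34.7 and 77.9 CPM, replicate 3 apart.

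Among the transcription factors of the ATF4/CHOP subgroup Cebpg and Atf5 rose and Ddit3 and Cebpb fell in both genotypes, and Atf4 passed in WT cells. Atf4 had 140.1, 166 and 172 CPM in primed KO cells against 136, 134 and 158 CPM fresh (0.16, 95% interval -0.06 to 0.38, adjusted p = 0.218), and rose by 0.35 in WT cells (152, 165 and 153 CPM primed against 125, 111 and 135 CPM fresh, SE 0.105, adjusted p = 0.0101). The WT call was lost without fresh WT replicate 2 (adjusted p = 0.065). Ddit3 fell by 0.86 on the log2 scale in KO cells, with 12.3, 24.2 and 30.1 CPM primed against 38.8, 39.4 and 43.3 CPM fresh (adjusted p = 0.00546). In WT cells it fell by 0.62, with 28.9, 19.0 and 21.0 CPM primed against 32.6, 34.0 and 38.9 CPM fresh (adjusted p = 0.0333), a call lost in 5 of 14 alternatives, where the adjusted p reached 0.146, primed WT replicate 3 left out among them (0.0946). Cebpb, a C/EBP transcription factor, fell in both genotypes, to 0.562 ± 0.214 CPM in primed KO and 0.195 ± 0.206 CPM in primed WT cells (log2 fold changes -2.82 in KO and -4.32 in WT cells). Its relative Cebpg, a dimer partner of ATF4, rose by 0.39 in KO and 0.62 in WT cells, and Atf5 by 0.88 in KO and 0.93 in WT cells; Atf5 read at most 3.35 ± 0.612 CPM on average in any group, and its call was lost in 6 of 14 alternatives in KO and 8 of 14 in WT cells, among them the one without primed WT replicate 3 (adjusted p = 0.118).

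The feedback genes split. Ppp1r15a, which encodes GADD34 and so directs the phosphatase that resets eIF2 alpha, had 37.7, 49.2 and 56.3 CPM in primed KO cells against 733, 768 and 1010.2 CPM fresh (-4.13, SE 0.172, adjusted p = 3.67e-12). In WT cells it had 42.0, 36.8 and 46.6 CPM primed against 849, 882 and 933 CPM fresh (-4.41, SE 0.174, adjusted p = 3.36e-12). These were the steepest falls of any member, with fresh and primed libraries far apart. Trib3, a pseudokinase that restrains ATF4 and AKT signalling, rose by 3.52 in KO and 3.83 in WT cells but stayed low, at 4.68 ± 1.92 CPM in primed KO and 6.08 ± 1.5 CPM in primed WT cells. Chac1, which degrades glutathione, had 40, 25 and 26 reads in primed KO against 8, 0 and 0 reads in fresh KO cells (adjusted p = 0.00338). In WT cells it had 54, 21 and 42 reads primed and 0 reads in each of 3 fresh libraries, and was at least 12.0-fold higher against a floor of 3 reads in each fresh library. Sesn2 and Ddit4, both brakes on the growth kinase mTORC1, rose by 1.51 and 0.73 in KO cells (adjusted p = 0.000292 and 0.0282). The KO call of Ddit4 was lost in 5 of 14 alternatives, where the adjusted p reached 0.0827. In WT cells the log2 fold changes of Sesn2 and Ddit4 were 0.50 and 0.20 (adjusted p = 0.147 and 0.532). Eif4ebp1, the translational repressor 4E-BP1, had 0.76 in KO and 0.35 in WT cells and did not pass (adjusted p = 0.307 and 0.635); without primed WT replicate 3 the WT value was -1.15 (adjusted p = 0.0405), and the genotype difference of the response, 0.41 with it, was 1.91 (adjusted p = 0.0352). The genotype difference of the response was 1.02 for Sesn2 and 0.53 for Ddit4 and did not pass (adjusted p = 0.11 and 0.388).

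Of the amino acid enzymes, Asns (chromosome 6 from 7675169 to 7693254 on the minus strand, mm10) showed the largest fitted rise of any member in KO cells, at 35.7, 29.0 and 34.5 CPM in primed KO cells against 0.181, 0.05 and 0 CPM fresh and at 27.2, 44.5 and 38.6 CPM in primed WT cells against 0.426, 0.610 and 0.314 CPM fresh. The fitted log2 fold changes were 8.81 in KO and 6.33 in WT cells (SE 0.409 and 0.327, adjusted p = 1.32e-11 and 5.13e-11), and with so few reads in fresh cells their size depends on the prior of the fit. Pycr1, the last enzyme of proline synthesis, rose by 2.74 in KO cells, to 1.92 ± 0.294 CPM, and by 3.65 in WT cells, to 3.2 ± 0.187 CPM. Got1, the cytosolic aspartate transaminase, rose by 0.30 in KO and 0.94 in WT cells (adjusted p = 0.0419 and 3.82e-06). The KO call of Got1 was lost in 7 of 14 alternatives. Aldh18a1, an earlier enzyme of proline synthesis, rose by 0.51 in WT cells (adjusted p = 0.009), with 0.21 in KO cells (adjusted p = 0.275). Xpot, the export receptor for tRNA, rose by 0.95 in KO and 0.72 in WT cells. Gpt2, the mitochondrial alanine transaminase, had log2 fold changes of -1.68 in KO and -0.98 in WT cells that did not pass (adjusted p = 0.128 and 0.318), with a highest group mean of 1.02 ± 0.241 CPM.

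ER stress members went both ways with priming. Xbp1, the transcription factor that IRE1 splices, had 18.8, 18.4 and 21.9 CPM in primed KO cells against 14.1, 11.9 and 9.46 CPM fresh (0.74, SE 0.162, adjusted p = 0.00115), and 33.9, 38.4 and 31.2 CPM in primed WT cells against 17.0, 13.4 and 12.9 CPM fresh (1.25, SE 0.162, adjusted p = 4.71e-06). Hspa5 rose by 0.44 in KO and 0.32 in WT cells, to 1515, 1567 and 1717 CPM in primed KO and 1561, 1543 and 1547 CPM in primed WT cells (adjusted p = 0.000773 and 0.0066). Hsp90b1, the ER chaperone GRP94, had a log2 fold change of 0.26 in KO cells (adjusted p = 0.0523) and rose by 0.81 in WT cells (adjusted p = 5.72e-06). Its counts are fractional in all 18 libraries. Dnajb9, a co-chaperone of BiP that restrains IRE1, fell in both genotypes (log2 fold changes -1.87 in KO and -3.29 in WT cells, adjusted p = 1.93e-05 and 3.76e-08). Herpud1, an ERAD scaffold, fell likewise, with log2 fold changes of -0.83 in KO and -0.88 in WT cells. Edem1, which marks glycoproteins for ERAD, rose by 0.62 in KO cells (adjusted p = 0.0173), and the disulfide isomerase gene Pdia4 rose by 0.47 in WT cells (adjusted p = 0.000641). Sel1l, the adaptor of the ERAD ligase, fell by 0.73 in WT cells (adjusted p = 0.044) while the fresh and primed ranges overlapped: primed WT libraries read 26.9, 26.3 and 57.5 CPM, against 54.2, 67.8 and 62.8 CPM fresh. The Sel1l call was lost in 7 of 14 alternatives, where the adjusted p reached 0.186, and without primed WT replicate 3 the value was -1.20.

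NKG2D stimulation was compared with the primed state in each genotype. In KO cells 2 members rose and 15 fell, beside 18.4% of all tested genes that rose and 16.9% that fell. In WT cells 2 members rose and 9 fell, beside 9.20% and 10.7%. The 2 that rose were Ddit3 and Ddit4 in both genotypes, and both belong to the ATF4/CHOP subgroup. Of the serine and one-carbon members 6 of 8 fell in KO cells and 4 of 8 in WT cells, with medians of -0.97 in KO and -0.58 in WT cells, beside 0.04 in KO and -0.01 in WT cells over all tested genes. Of the ER stress members 4 fell in KO and 3 in WT cells, with medians of -0.52 in KO and -0.20 in WT cells. Of the ATF4/CHOP members 5 fell in KO and 2 in WT cells, with medians of -0.29 in KO and -0.16 in WT cells.

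Ddit3 had 85.8, 66.6 and 69.3 CPM in stimulated KO cells against 12.3, 24.2 and 30.1 CPM in primed KO cells (1.73, SE 0.236, adjusted p = 2.27e-05). In WT cells it had 57.0, 44.2 and 48.7 CPM stimulated against 28.9, 19.0 and 21.0 CPM primed (1.12, SE 0.233, adjusted p = 0.00216). Ddit4 rose by 1.12 in KO and 0.91 in WT cells, to 30.1, 24.7 and 29.4 CPM in stimulated KO and 18.8, 22.4 and 12.9 CPM in stimulated WT cells (adjusted p = 0.0025 and 0.019). Its WT call was lost in 4 of 14 alternatives, where the adjusted p reached 0.104. Atf4 did not rise with its partner Ddit3: it fell by 0.37 in KO cells, with 134, 119.5 and 116 CPM stimulated against 140.1, 166 and 172 CPM primed (adjusted p = 0.0104), and in WT cells had 136, 129 and 145 CPM stimulated against 152, 165 and 153 CPM primed (-0.20, adjusted p = 0.202). The KO call of Atf4 was lost in 2 of 14 alternatives, where the adjusted p reached 0.0552. Ppp1r15a fell further (log2 fold changes -1.31 in KO and -1.24 in WT cells), to 19.3 ± 1.84 CPM in stimulated KO and 17.7 ± 2.77 CPM in stimulated WT cells. Xpot fell too, with -0.73 in KO and -0.56 in WT cells on the log2 scale. Asns fell by 1.28 in KO cells (SE 0.237, adjusted p = 0.00045) and had a log2 fold change of -0.13 in WT cells (95% interval -0.61 to 0.36). Chac1 fell in KO cells, to 11, 3 and 5 reads against 40, 25 and 26 reads primed (-2.60, adjusted p = 0.0258), a call lost in 3 of 14 alternatives.

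Shmt1, Mthfd1, Psat1 and Mthfd2, which were higher in primed than in fresh cells, were lower in both genotypes after the wash and 6 hours on NKG2D. Shmt1 had 3.69, 1.92 and 2.85 CPM in stimulated KO cells against 38.8, 33.5 and 47.0 CPM primed (-3.81, SE 0.256, adjusted p = 8.57e-09), and 13.1, 10.7 and 7.54 CPM in stimulated WT cells against 41.0, 46.9 and 49.3 CPM primed (-2.13, SE 0.232, adjusted p = 5.03e-06). The stimulated KO libraries overlapped the fresh KO libraries, which read 2.99, 1.70 and 2.14 CPM. Mthfd1 (chromosome 12 from 76255298 to 76319803 on the plus strand, mm10) had 21.2, 18.6 and 15.5 CPM in stimulated KO cells against 92.8, 84.5 and 93.8 CPM primed (-2.29, SE 0.149, adjusted p = 5.73e-09), and 48.7, 41.3 and 31.7 CPM in stimulated WT cells against 76.7, 85.3 and 79.5 CPM primed (-0.99, SE 0.142, adjusted p = 7.91e-05). Psat1 fell in both genotypes (log2 fold changes -1.69 in KO and -1.05 in WT cells, adjusted p = 4.73e-08 and 1.98e-05), and so did Mthfd2 (-0.98 in KO and -0.53 in WT cells, adjusted p = 3.36e-05 and 0.011). Shmt2 and Mthfd1l fell in KO cells, with log2 fold changes of -0.78 and -0.97 (adjusted p = 0.00122 and 0.0254), and in WT cells had -0.12 and -0.64 (adjusted p = 0.648 and 0.176). Phgdh and Psph did not pass in either genotype, with -0.19 and 0.18 in KO cells. Without NKG2D-stimulated KO replicate 1, where Phgdh read 219 CPM beside 99.3 and 118, the value of Phgdh was -0.61 (adjusted p = 0.0448), and the call of Mthfd1l was lost (adjusted p = 0.112). Without that library Got1 also passed in KO cells, at -0.35 (adjusted p = 0.0242), beside -0.20 with it. Without primed WT replicate 3 the response of Eif4ebp1 in WT cells was 1.51 (adjusted p = 0.0295), beside an adjusted p of 1.0 with it.

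Hspa5 (chromosome 2 from 34771970 to 34777547 on the plus strand, mm10) fell by 1.38 in KO cells, with 615, 618 and 605 CPM stimulated against 1515, 1567 and 1717 CPM primed (SE 0.0929, adjusted p = 8.57e-09). In WT cells it fell by 0.34, with 1373, 1229 and 1065 CPM stimulated against 1561, 1543 and 1547 CPM primed (SE 0.0913, adjusted p = 0.0126), a call lost in 3 of 14 alternatives. Hsp90b1 fell in both genotypes (log2 fold changes -0.80 in KO and -0.74 in WT cells, adjusted p = 1.7e-05 and 7.9e-05), and so did Xbp1 (-0.56 in KO and -0.69 in WT cells, adjusted p = 0.0119 and 0.0047). Pdia4 fell by 0.53 in KO cells (adjusted p = 0.000507) and had a log2 fold change of -0.03 in WT cells (95% interval -0.23 to 0.18). Herpud1, Dnajb9, Sel1l and Edem1 did not pass in either genotype.

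**Figure D3:**
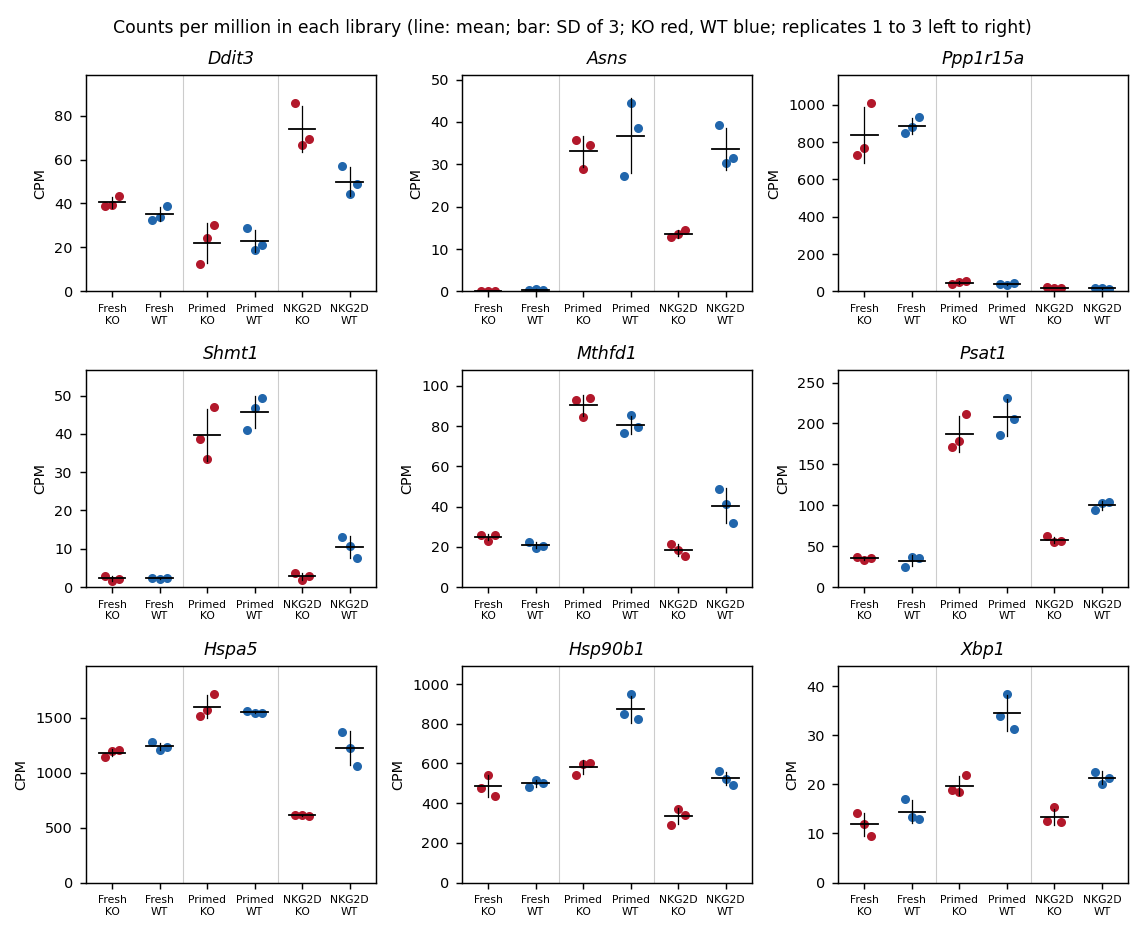
CPM of 9 members in every library, with KO in red left of WT in blue within fresh, primed and NKG2D-stimulated cells, a line at the mean and a bar of 1 SD (n = 3). Shmt1, Mthfd1, Psat1 and Asns are higher in primed than in fresh cells of both genotypes. After NKG2D all 3 KO libraries of these genes and of Hspa5, Hsp90b1 and Xbp1 lie below all 3 WT libraries.

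In primed cells, the genotype comparison asks what loss of Acly does after culture with IL-15. Of the 33 members 3 were higher and 3 lower in KO cells, beside 7.0% of all tested genes that were higher and 8.52% lower. The 6 were spread over the subgroups, 1 in ATF4/CHOP, 2 in serine and one-carbon and 3 in ER stress, and the subgroup medians were 0.00, -0.11 and 0.01 beside -0.02 over all tested genes. Of the 8 serine and one-carbon genes, 6 showed no difference that passed the test.

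Sesn2 had 25.3, 34.7 and 26.6 CPM in primed KO cells against 14.0, 13 and 18.4 CPM in primed WT cells (0.93, SE 0.279, adjusted p = 0.0315). Mthfd2 had 158, 187 and 201 CPM in KO against 128, 136 and 124 CPM in WT cells (0.49, SE 0.137, adjusted p = 0.0214). Psph had 46.6, 50.7 and 50.8 CPM in KO against 67.3, 64.7 and 61.1 CPM in WT cells (-0.38, SE 0.105, adjusted p = 0.0203). For all 3 the genotypes did not overlap, but each call was lost in some alternatives: Sesn2 in 4, Mthfd2 in 4 and Psph in 6 of 14, among them leaving out primed WT replicate 1. Xbp1 had 18.8, 18.4 and 21.9 CPM in KO against 33.9, 38.4 and 31.2 CPM in WT cells (-0.81, SE 0.16, adjusted p = 0.00263). Hsp90b1 had 541, 598 and 603 CPM in KO against 848, 951 and 823 CPM in WT cells (-0.59, SE 0.106, adjusted p = 0.00117). The falls of Xbp1 and Hsp90b1 held in all 14 alternatives. Dnajb9 went the other way, with 20.2, 23.1 and 17.9 CPM in KO against 7.84, 7.09 and 13.9 CPM in WT cells (1.07, SE 0.27, adjusted p = 0.0121), again without overlap, and its call was lost in 3 alternatives, where the adjusted p reached 0.0624.

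Atf4 and Hspa5 were close to equal in the primed genotypes, with log2 fold changes of 0.02 (95% interval -0.20 to 0.24) and 0.05 (95% interval -0.15 to 0.24). Ddit3 was -0.04 (95% interval -0.53 to 0.45). Its KO libraries read 12.3, 24.2 and 30.1 CPM, and without replicate 1, which has the fewest reads of all libraries, the value was 0.26. Primed WT replicate 3, the library apart in H2-D1, also stood apart in 3 members. Eif4ebp1 read 15.6, 12.4 and 14.9 CPM in primed KO cells and 5.62, 6.6 and 39.3 CPM in primed WT cells. Mthfd1l read 54.2, 56.9 and 52.6 CPM in primed KO and 24.5, 34.7 and 77.9 CPM in primed WT cells. Sel1l read 62.6, 48.7 and 39.8 CPM in primed KO and 26.9, 26.3 and 57.5 CPM in primed WT cells. In all 3 genes replicates 1 and 2 of WT lay below the KO libraries and replicate 3 above most of them. Without that library 9 members passed in place of 6, and 4 of them were new: Sel1l at 0.92 (adjusted p = 0.0255), Mthfd1l at 0.88 (0.0215), Cebpb at 2.76 (0.0108) and Got1 at -0.41 (0.0426). Mthfd2 did not pass without it. Without primed WT replicate 1 only 2 members passed.

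**Figure D4:**
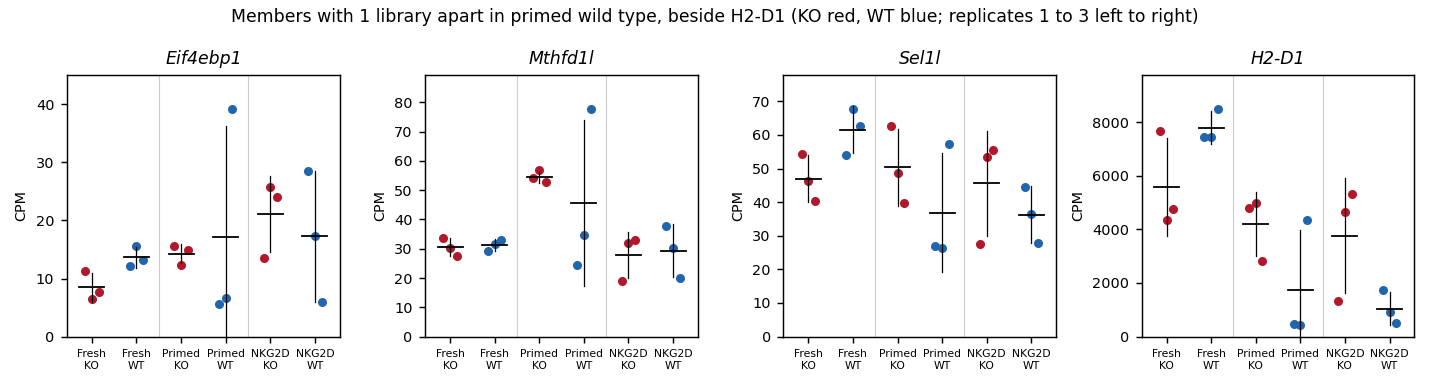
CPM of Eif4ebp1, Mthfd1l, Sel1l and H2-D1 in every library, with KO in red left of WT in blue, a line at the mean and a bar of 1 SD (n = 3). In primed WT cells replicate 3 reads 39.3 CPM of Eif4ebp1, 77.9 of Mthfd1l, 57.5 of Sel1l and 4338 of H2-D1, above both other libraries in each panel.

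After NKG2D stimulation 10 of the 33 members differed between genotypes. Of these, 1 was higher and 9 were lower in KO cells, beside 8.75% of all tested genes that were higher and 9.47% lower. The serine and one-carbon subgroup held 4 of the 9 and had a median of -0.59, the ER stress subgroup held 4 and had a median of -0.29, and the ATF4/CHOP subgroup held 1 and had a median of -0.15, beside 0.03 over all tested genes. All 9 falls held in all 14 alternatives.

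**Figure D5:**
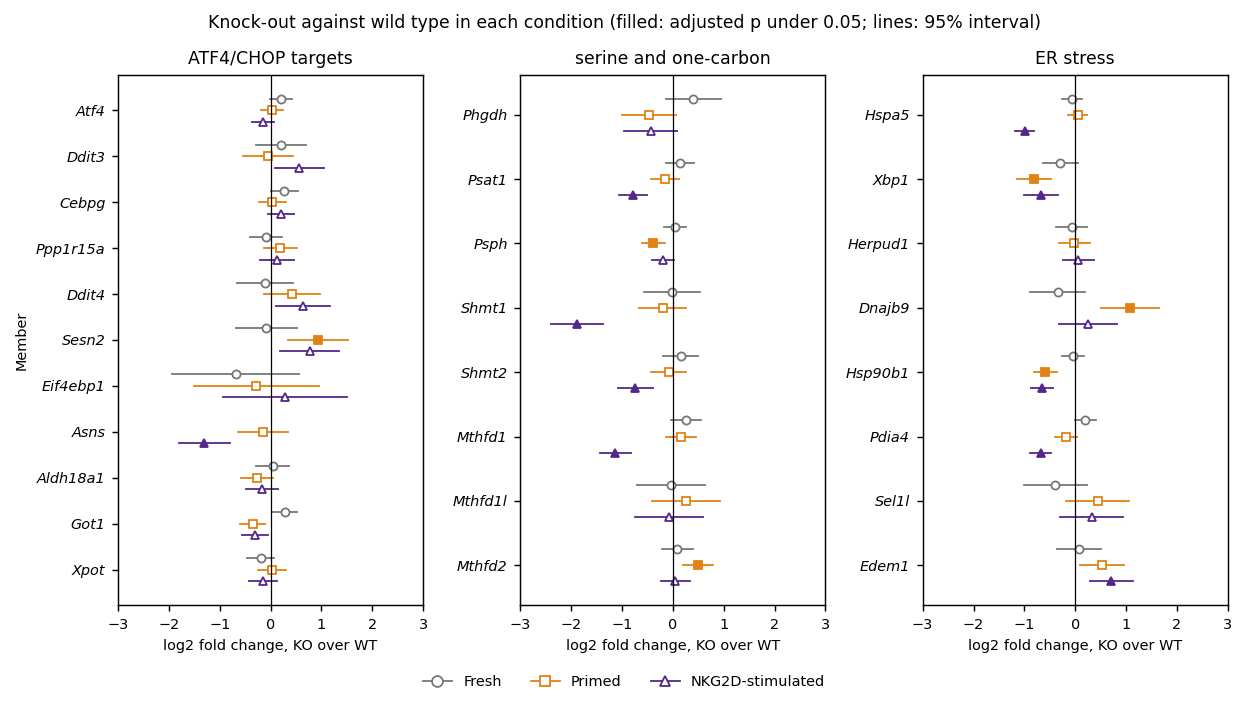
Log2 fold change of KO over WT with its 95% interval in fresh, primed and NKG2D-stimulated cells, by subgroup, with filled symbols past an adjusted p of 0.05; the low members Chac1, Gpt2, Cebpb, Trib3, Pycr1 and Atf5, and fresh Asns, are left out. The filled symbols left of 0 after NKG2D are Asns, Psat1, Shmt1, Shmt2, Mthfd1, Hspa5, Xbp1, Hsp90b1 and Pdia4, and no symbol of fresh cells is filled.

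Shmt1 showed the largest fall among those called, with 3.69, 1.92 and 2.85 CPM in stimulated KO cells against 13.1, 10.7 and 7.54 CPM in stimulated WT cells (-1.89, SE 0.245, adjusted p = 6.64e-05). Mthfd1 had 21.2, 18.6 and 15.5 CPM in KO against 48.7, 41.3 and 31.7 CPM in WT cells (-1.14, SE 0.144, adjusted p = 5.5e-05). Both are cytosolic, and the KO and WT libraries did not overlap. Psat1 had 61.9, 55.5 and 56.2 CPM in KO against 93.8, 102 and 105 CPM in WT cells (-0.79, SE 0.131, adjusted p = 0.000555). Shmt2 had 108, 71.0 and 75.2 CPM in KO against 156, 144 and 125 CPM in WT cells (-0.74, SE 0.163, adjusted p = 0.0045). Both again had every KO library below every WT library. The mitochondrial Mthfd2 had 97.4, 91.2 and 89.3 CPM in KO and 97.4, 86.0 and 85.6 CPM in WT cells (0.05, 95% interval -0.24 to 0.34), and the difference of its NKG2D response was -0.45 (adjusted p = 0.23). Phgdh read 219, 99.3 and 118 CPM in KO and 217, 197 and 178 CPM in WT cells (-0.44, adjusted p = 0.25), and without KO replicate 1 the value was -0.86 (adjusted p = 0.0111). Psph and Mthfd1l had -0.20 and -0.07 and did not pass.

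Hspa5 had 615, 618 and 605 CPM in stimulated KO cells against 1373, 1229 and 1065 CPM in stimulated WT cells, which left 50.1% of the WT level (-1.0, SE 0.0921, adjusted p = 2.76e-06). The 3 KO libraries were closely grouped and all below the lowest WT library. Hsp90b1 had 292, 371 and 339 CPM in KO against 560.5, 521 and 493 CPM in WT cells (-0.65, SE 0.106, adjusted p = 0.00046). Pdia4 had 212, 184 and 180.2 CPM in KO against 337, 313 and 273 CPM in WT cells (-0.68, SE 0.0994, adjusted p = 0.000183). Xbp1 had 12.5, 15.3 and 12.3 CPM in KO against 22.6, 20.0 and 21.4 CPM in WT cells (-0.67, SE 0.161, adjusted p = 0.00762). These are 3 folding genes and 1 transcription factor, while no ERAD gene was lower by the test. Herpud1, Sel1l and Dnajb9 had 0.06, 0.33 and 0.25 (adjusted p = 0.813, 0.494 and 0.578). Edem1 was higher, with 75.5, 109.5 and 95.5 CPM in KO against 73.8, 47.5 and 49.9 CPM in WT cells (0.71, adjusted p = 0.0208), a call lost in 4 of 14 alternatives, where the adjusted p reached 0.115.

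In the ATF4/CHOP subgroup Asns was lower in stimulated KO cells and no other member passed. Asns had 12.8, 13.5 and 14.6 CPM in stimulated KO cells against 39.3, 30.3 and 31.4 CPM in stimulated WT cells (-1.31, SE 0.237, adjusted p = 0.00111). Ddit3 had 85.8, 66.6 and 69.3 CPM in KO and 57.0, 44.2 and 48.7 CPM in WT cells, without overlap but short of the threshold (0.56, SE 0.229, adjusted p = 0.0982). It passed with no filter on low counts (0.0141), with limma voom (0.00071) and with the stimulated libraries alone (0.0349). Atf4 had a log2 fold change of -0.15 (95% interval -0.37 to 0.07, adjusted p = 0.364). Chac1 and Pycr1, both low, had -2.43 and -1.51 (adjusted p = 0.0565 and 0.0658), with 11, 3 and 5 reads of Chac1 in KO and 61, 29 and 28 reads in WT libraries. Sesn2 and Ddit4 had 0.77 and 0.64 (adjusted p = 0.0636 and 0.09), with 29.7, 21.1 and 33.4 CPM of Sesn2 in KO and 24.0, 15.9 and 9.36 CPM in WT cells. Ppp1r15a, Xpot, Aldh18a1 and Cebpg had log2 fold changes of 0.12, -0.14, -0.17 and 0.20. Trib3, Atf5, Eif4ebp1, Gpt2, Cebpb and Got1 did not pass either, with -0.31 for Got1 (adjusted p = 0.0817). Without NKG2D-stimulated KO replicate 1 Got1 passed at -0.45 (adjusted p = 0.00825) and Chac1 at -3.06 (adjusted p = 0.0499).

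Whether a response itself differed between genotypes was tested as the KO response minus the WT response in the same fit. For NKG2D, 0 members had a higher and 3 a lower response in KO cells, beside 1.49% and 2.07% of all tested genes. They were Hspa5 (difference -1.04, SE 0.129, adjusted p = 0.000392), Mthfd1 (-1.30, SE 0.201, adjusted p = 0.00182) and Shmt1 (-1.68, SE 0.328, adjusted p = 0.00912). Each fell in both genotypes and fell further in KO cells, and each difference held in all 20 alternatives. Pdia4, Psat1 and Asns lay just outside, at -0.50, -0.64 and -1.15 (adjusted p = 0.0563, 0.0627 and 0.0632), and all 3 passed with DESeq2 (0.0117, 0.0148 and 0.00123). Without NKG2D-stimulated KO replicate 1 Pdia4 passed at -0.57 (adjusted p = 0.0303) and Shmt2, which had -0.66 with it (adjusted p = 0.13), at -0.87 (adjusted p = 0.0264). The rise of Ddit3 was larger in KO cells by 0.61, which did not pass (adjusted p = 0.342). The fall of Xbp1 differed by 0.13 (95% interval -0.35 to 0.61) and that of Atf4 by -0.17 (95% interval -0.49 to 0.14). The subgroup medians of the difference were -0.07 for ATF4/CHOP, -0.54 for serine and one-carbon and -0.09 for ER stress, beside 0.05 over all tested genes.

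For priming, 2 members had a higher and 2 a lower response in KO cells, beside 4.08% and 6.41% of all tested genes. Asns had a difference of 2.49 (SE 0.639, adjusted p = 0.0198). Primed Asns was 33.0 ± 3.58 CPM in KO and 36.8 ± 8.8 CPM in WT cells, so the difference rests on the few reads of the fresh libraries. Dnajb9 fell less in KO cells, by 1.42 (SE 0.373, adjusted p = 0.0223). Got1 and Hsp90b1 rose less in KO cells, with differences of -0.63 and -0.55 (SE 0.167 and 0.149, adjusted p = 0.0223 and 0.026). None of these 4 held in all 20 alternatives. Atf4, Ddit3, Hspa5 and Xbp1 had differences of -0.19, -0.25, 0.11 and -0.51 and did not pass. Of the 20 alternatives, that of Xbp1 passed only with limma voom (adjusted p = 0.029). Without primed WT replicate 3 Cebpb and Sel1l passed at 2.93 and 1.30 (adjusted p = 0.0173 and 0.0182), beside 1.5 and 0.83 with it (adjusted p = 0.202 and 0.211). Psph and Pdia4 followed at -0.42 and -0.38 (adjusted p = 0.0783 and 0.0931). The subgroup medians were -0.19, -0.21 and 0.08 in the same order, beside -0.01 over all tested genes.

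Other genes of these pathways were taken from 3 lists that exclude the members. In stimulated cells, 9 of 28 tested one-carbon and purine genes were lower and 2 higher in KO than in WT cells, beside 9.47% of all tested genes that were lower and 8.75% that were higher. Atic and Ppat, enzymes of purine synthesis, which uses formyl-folate, were lower, at -0.76 and -0.67 on the log2 scale (adjusted p = 0.000897 and 0.00164), and the mitochondrial serine carrier gene Sfxn3 and thymidylate synthase, Tyms, were higher by 0.97 and 0.56. Of 33 tested genes around the integrated stress response 7 were lower and 2 higher. Eif2b3, a subunit of the exchange factor that eIF2 phosphorylation inhibits, and Bcat1, a branched-chain transaminase, were lower, at -1.05 and -2.30 (adjusted p = 4.79e-05 and 0.000842). Klhl24 and the amino acid carrier gene Slc38a2 were higher by 0.55 and 0.45. Of 36 tested genes of ER folding and ERAD 5 were lower and 0 higher, which is not read as a result about the list, led by the disulfide isomerase gene Pdia6 at -1.16 and the chaperone gene Calr at -1.02 (adjusted p = 6.45e-06 and 3.85e-05). The medians of the 3 lists were -0.16, -0.22 and -0.14 in that order, beside 0.03 over all tested genes.

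In primed cells 4 one-carbon genes were higher and 1 lower in KO cells, beside 7.0% of all tested genes that were higher and 8.52% that were lower, among them Atic at 0.63 and Sfxn3 at 0.53, with the formyltetrahydrofolate dehydrogenase gene Aldh1l1 at -2.42. Of the stress response list 4 were higher and 1 lower, with Ppp1r15b, the constitutive partner of the eIF2 phosphatase, at 0.85, Slc38a2 at 0.76 and the glycyl-tRNA synthetase gene Gars at -0.36. Of the ER list 0 were higher and 5 lower, led by Selenos at -0.67 and the ER oxidase gene Ero1l at -1.30. In fresh cells 0 genes of any of these lists passed. Priming raised 23.0% and lowered 25.7% of all tested genes in KO cells, and raised 26.5% and lowered 27.2% in WT cells. It raised 16 and lowered 4 of the stress response list in KO cells and raised 17 and lowered 7 in WT cells, with Eif2ak2, the kinase PKR, at 2.26 in KO and 2.16 in WT cells and Atf3 at -3.81 in KO and -3.75 in WT cells. It raised 17 and lowered 4 one-carbon genes in KO and raised 16 and lowered 6 in WT cells, with Tyms at 3.90 in KO and 3.36 in WT cells. It raised 9 and lowered 5 ER genes in KO cells and raised 13 and lowered 9 in WT cells, of 36 tested, and these ER counts are not read as a result about the list, with Ern1, which encodes IRE1, at -1.37 in KO and -1.44 in WT cells.

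NKG2D lowered 16.9% and raised 18.4% of all tested genes in KO cells, and lowered 10.7% and raised 9.20% in WT cells. It lowered 18 and raised 3 genes of the stress response list in KO cells and lowered 11 and raised 2 in WT cells, with Eif2s1, which encodes eIF2 alpha, at -1.21 in KO and -0.64 in WT cells. It lowered 13 and raised 6 one-carbon genes in KO cells and lowered 12 and raised 4 in WT cells, with Mat2a, which makes S-adenosylmethionine, at -2.16 in KO and -1.29 in WT cells. Of the ER list 10 fell and 2 rose in KO cells, and 2 fell and 2 rose in WT cells. As differences between the genotypes' NKG2D responses, 4 stress response, 5 one-carbon and 2 ER genes passed, all lower in KO cells, beside 2.07% of all tested genes that were lower, among them Atic (-1.38, adjusted p = 0.00072), Mat2a (-0.87, adjusted p = 0.00252) and Eif2b3 (-1.13, adjusted p = 0.00262). For the priming response the counts were 3 higher and 1 lower, 0 higher and 2 lower, and 0 higher and 4 lower in the same order, beside 4.08% higher and 6.41% lower of all tested genes, with Sec61b, a subunit of the ER translocon, at -1.04 (adjusted p = 0.00181).

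In log2 fold change of KO over WT, the authors' deposited table for fresh NK cells lists 33 of the members and calls 1 higher, Got1 at 0.26 (adjusted p = 0.0265), and 1 lower, Dnajb9 at -0.396 (adjusted p = 0.0253), beside 7.14% and 7.15% of its 13578 genes. The authors' deposited table of primed cells called 6 members higher and 4 lower, beside 18% and 13.2%. Those of the 10 that did not pass in the test above were Ddit4, Mthfd1l and Sel1l, higher, and Got1, lower, in the authors' deposited table. The authors' deposited table of stimulated cells called 5 members higher and 16 lower, beside 23.1% and 22.4%. In the authors' deposited table Hspa5 stood at -1.01, Mthfd1 at -1.31, Shmt1 at -2.01 and Asns at -1.17, and Ddit3, Sesn2, Ddit4, Sel1l and Edem1 were the 5 called higher.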

How the data were processed

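RNA was extracted with RNeasy and made into SMARTer (Takara-Clontech) libraries, per the labels' protocols. The submitters' processing notes name the mm10 build, bcl2fastq, DRAGEN and edgeR, with no versions; the gene annotation and any use of strand are not given in any source used here, so overlapping and antisense genes cannot be told apart. The authors deposited estimated counts per gene, not scaled between libraries, of which 30.0% of the values above 0 were not whole. They also deposited, per the file headers, log2 fold changes and p-values for the 3 genotype comparisons; the model behind them is not given.

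The counts were rounded to whole numbers. For identifiers listed more than once (168) the first entry was kept. Of the 2 identifiers named Ddit3 the one not used held 0 reads. Genes were filtered with filterByExpr, scaled by TMM and tested with edgeR 4.0.16 (R 4.3.3) by the quasi-likelihood test on 6 group means over 18 libraries, with Benjamini-Hochberg adjustment over 14864 genes and a threshold of 0.05. Shared residual spread left 12 degrees of freedom. Standard errors are the log2 fold change divided by the square root of F. The test was run on simulated data first. No 2 libraries agreed within sampling noise (lowest chi-square per degree of freedom 11.9). Reads were counted without molecular identifiers, so depth limits only counting error; with 14.8 M to 34.4 M reads per library, members under about 1 CPM rest on few reads. Exon lengths came from GENCODE and promoters from RefSeq (GRCm38.p6).

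All 35 members may be named. Full statistics were given to Atf4, Ddit3, Xbp1 and Hspa5, to the called members of smallest adjusted p in each subgroup and direction, and to members whose responses differed; the related genes named are those of smallest adjusted p. The members and lists were chosen with earlier results of these data known. Alternatives were other scaling (RLE), no filter, a stricter filter, DESeq2 1.42.0, limma 3.58.1 voom, the libraries of a comparison alone, the replicate number as a block, leaving out each library, and leaving out both libraries apart in H2-D1, which was chosen after seeing the data.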

Additional observations from a re-analysis of the deposited data

Results flagged for a closer look

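The response to NKG2D differed between genotypes, by the test of the difference itself, for Hspa5 (KO minus WT -1.04, adjusted p = 0.000392), Mthfd1 (-1.30, adjusted p = 0.00182) and Shmt1 (-1.68, adjusted p = 0.00912). In all 3 genes every stimulated KO library lay below every stimulated WT library, at 605 to 618 CPM against 1065 to 1373 CPM for Hspa5, 15.5 to 21.2 CPM against 31.7 to 48.7 CPM for Mthfd1 and 1.92 to 3.69 CPM against 7.54 to 13.1 CPM for Shmt1.

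The response to priming differed for Asns (2.49, adjusted p = 0.0198), Dnajb9 (1.42, adjusted p = 0.0223), Got1 (-0.63, adjusted p = 0.0223) and Hsp90b1 (-0.55, adjusted p = 0.026). Of 33 members 2 had a higher and 2 a lower response in KO cells, beside 4.08% and 6.41% of all tested genes. Of 20 alternatives, the call was lost in 5 for Asns, 5 for Dnajb9, 9 for Got1 and 7 for Hsp90b1. The Asns value rests on 4, 1 and 0 reads in fresh KO libraries against 11, 13 and 6 in fresh WT libraries.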

How the results depend on the processing

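Of 103 member results past the threshold, 74 stayed past it in the same direction under every alternative run. None of the 103 changed sign. Among results that did not pass, Ddit3 in primed KO against WT cells (-0.04) ran, with 1 library left out, from -0.32 (without primed KO replicate 3) to 0.26 (without HD15_KO replicate 1, the primed KO library of that number). Others near 0 also changed sign, such as Atf4 and Hspa5 in primed KO against WT cells (down to -0.04 and -0.01), Ddit3 in the genotype difference of the priming response (up to 0.08) and Eif4ebp1 in the priming of WT cells (0.35, and -1.15 without primed WT replicate 3). The cause was not tested. Counts of members past the threshold that moved by over 1.5 times were as follows. In fresh cells (0) the count was 1, Asns, with no filter, with DESeq2 and without both libraries apart in H2-D1. In primed cells (6) it was 10 with limma voom and 10 without those libraries. In stimulated cells (10) it was 16 with no filter and 20 with voom. For the NKG2D response of WT cells (11) it was 17 with voom. For the genotype difference of the priming response (4) it was 10 with voom, 11 without those libraries and 2 with the replicate block. For that of the NKG2D response (3) it was 7 with no filter, 6 with a stricter filter, 6 with DESeq2 and 9 with voom. The cause of these changes was not tested.

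Leaving out 1 library at a time gave 0 to 1 members in fresh, 2 to 9 in primed and 9 to 13 in stimulated cells between genotypes, 22 to 25 for priming in KO and 24 to 27 in WT cells, 15 to 18 for NKG2D in KO and 9 to 12 in WT cells, and 1 to 7 and 3 to 5 for the genotype differences of the priming and the NKG2D response. The difference of the priming response gave 7 without primed WT replicate 3, and 1 without fresh KO replicate 1 or 2, fresh WT replicate 2, or primed WT replicate 1 or 2.

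Over all genes, the fresh genotypes (10) gave 564 with no filter, 137 with DESeq2, 1900 with voom, 780 with the fresh libraries alone and 409 without both libraries apart, and 5 to 12 with 1 library left out. Primed cells (2307) gave 4214 with voom and 1128 alone, and 1357 without 1 library at the lowest; stimulated cells (2708) gave 6256 with voom and 1643 without 1 library at the lowest. The NKG2D response gave 3450 alone in KO (5248) and 5295 with voom in WT cells (2954). The genotype difference of the priming response (1559) gave 4157 with voom, 972 with the replicate block, 3025 without both libraries apart and 842 to 2453 with 1 library left out. That of the NKG2D response (528) gave 887 with no filter, 1016 with DESeq2, 2114 with voom, 203 alone, 250 with the replicate block and 242 to 598 with 1 library left out.

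Over the more abundant genes, same-numbered libraries deviated from their group means with correlations of -0.44 to 0.27, which shows no common pairing but cannot exclude one. Cd3e kept the same order of replicates in WT cells, at 12.6, 2.53 and 1.99 CPM fresh and 1.32, 0.273 and 0.123 CPM primed. Stimulated WT cells read 2.11, 0.429 and 0.187 CPM. In KO cells replicate 3 was the lowest for Cd3e in each condition. Whether the libraries are paired was not settled, and the block shows only what a shared number does. Depth limits the low members: Asns in fresh cells, Chac1, Gpt2, Cebpb, Trib3, Pycr1 and Atf5 rest on few reads.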

Other observations

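Hspa5 read 605 to 618 CPM in the 3 stimulated KO libraries, and 1065 to 1717 CPM in the other 15 libraries, fresh ones included. Ddit3 was highest in the same 3 libraries, at 66.6 to 85.8 CPM, beside 12.3 to 57.0 CPM in the other 15. Dnajb9 and Herpud1, which with Hspa5 belong to the ER stress genes, did not share this order: their highest values were in fresh cells, at 98.4 CPM for Dnajb9 in a WT library and 230 CPM for Herpud1 in a WT library. Cth, which entered no test after filtering, passed with no filter in primed against fresh WT cells (5.61, adjusted p = 0.0227) on at most 13 reads in any library.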
